A study of Homo sapiens with 6 samples.

Results

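The genes of adrenal androgen synthesis and sulfation were compared between the parental adrenocortical carcinoma (ACC) line H295R and H295R-PM-Ptc+ cells. The genes were taken by symbol and comprised SULT2A1, PAPSS1, PAPSS2, CYB5A, STS, AKR1C3, SRD5A1, HSD17B4, HSD17B12 and CYP19A1, which are 10 of the 57341 gene names in the count table, and all 10 were found and passed the filter on low counts. H295R is an established line of ACC cells that makes steroids in culture. H295R-PM-Ptc+ cells were sorted from it by flow cytometry with an antibody against the Hedgehog receptor Ptch1 at the plasma membrane and were then amplified, so that they are an enriched population of the same line, with no engineered change named in the labels. Both were grown untreated in DMEM/F12 with NuSerum and ITS+, and RNA of 3 replicates of each was sequenced.

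The adrenal cortex is the main source of dehydroepiandrosterone (DHEA), which CYP17A1 makes with cytochrome b5 (CYB5A) as its helper. SULT2A1 then moves a sulfate group onto DHEA from the donor PAPS, which the synthases PAPSS1 and PAPSS2 make, and the sulfate ester DHEAS is the form in which most of this steroid leaves the gland. Steroid sulfatase (STS) removes the sulfate again, and reductases, dehydrogenases and aromatase turn the free precursors into active androgens and estrogens, mostly in other tissues.

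The 6 libraries held between 23264403 and 25813247 counted fragments on genes. The names of the groups are in doubt. All 6 columns of a supplementary table of the study were found in the deposited table with their replicate code kept but their group name exchanged. Across 627 genes with at least 100 counts in every library, the log2 difference between such columns had an SD of at most 0.00302, against at least 0.12 for any other match. PTCH1, the gene behind the sort, had 441, 559 and 579 counts in replicates 1, 2 and 3 labelled H295R and 248, 326 and 319 in those labelled H295R-PM-Ptc+, a log2 fold change of -0.81 (standard error 0.15, edgeR quasi-likelihood test with Benjamini-Hochberg adjustment, adjusted p = 0.0207), which lost the threshold without the library labelled H295R replicate 2, H295R replicate 3 or H295R-PM-Ptc+ replicate 2 (0.0618 to 0.0921). The paper reports Ptch1 as overexpressed in H295R-PM-Ptc+ cells by RNA-seq and by Western blot, the reverse of the direction under these labels. The counts alone cannot tell which names are right, and all libraries are named here as the deposited table labels them. Every direction below takes the libraries labelled H295R as the base, and each would turn if the names were exchanged. All 7 adrenocortical markers (NR5A1, STAR, CYP11A1, CYP17A1, HSD3B2, MC2R and INHA) reached at least 1 CPM (counts scaled to a fixed library size) in every library, with a summed level of 869 to 1145 CPM in the libraries labelled H295R and 934 to 1191 CPM in the others. Leukocyte (at most 0.0432 CPM), endothelial (at most 0.235) and chromaffin markers (at most 1.53) were near 0, PTPRC, CD68, DBH and PNMT were at 0 in all libraries, and the fibroblast markers summed to 7.91 to 9.29 and 9.12 to 11.0 CPM, nearly all of it COL1A1, the 1 of the 4 markers that reached 1 CPM in all libraries, with LUM at 0. The labels do not say whether replicates came from separate cultures, so that p-values measure the spread between these libraries only. In bulk RNA, fewer cells that express a gene and less of its RNA per cell cannot be told apart.

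SULT2A1, the enzyme that sulfates DHEA, was the 1 gene of the 10 with an adjusted p under 0.05, and its level in libraries labelled H295R-PM-Ptc+ was 1.51-fold that of the parental label. In that test 404 of 16710 genes (2.42%) were higher, and 3.73% of all genes passed in either direction. None of the 10 genes passed as lower by edgeR, by DESeq2, with which 5.45% of all genes passed, or by limma-voom, with which 3.64% did, while at an unadjusted p under 0.05, which 17.3% of all genes reached, PAPSS2, SRD5A1 and SULT2A1 were higher and HSD17B12 was lower. The median log2 fold change of the 10 genes was -0.09 against 0.00 over all genes tested, with 4 genes above 0 and 6 below, and their median absolute change was 0.13, as it was over all genes. The groups did not overlap in 6 genes, 3 with the libraries labelled H295R-PM-Ptc+ above (SULT2A1, PAPSS2 and SRD5A1) and 3 below (PAPSS1, CYB5A and HSD17B12), against 23.5% of all genes.

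Same-numbered replicates of the groups varied together, and with the replicate number as a block in the same fit 4 of the 10 genes passed, where 22.5% of all genes did. These were SULT2A1, PAPSS2 and SRD5A1, higher, and HSD17B12, lower. Replicate 1 of both groups stood apart from the others on the second principal component, which held 27.6% of the variance. Without it, 4 of the 10 genes passed against 12% of all genes, namely SULT2A1, SRD5A1, HSD17B12 and CYP19A1.

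**Figure D1:**
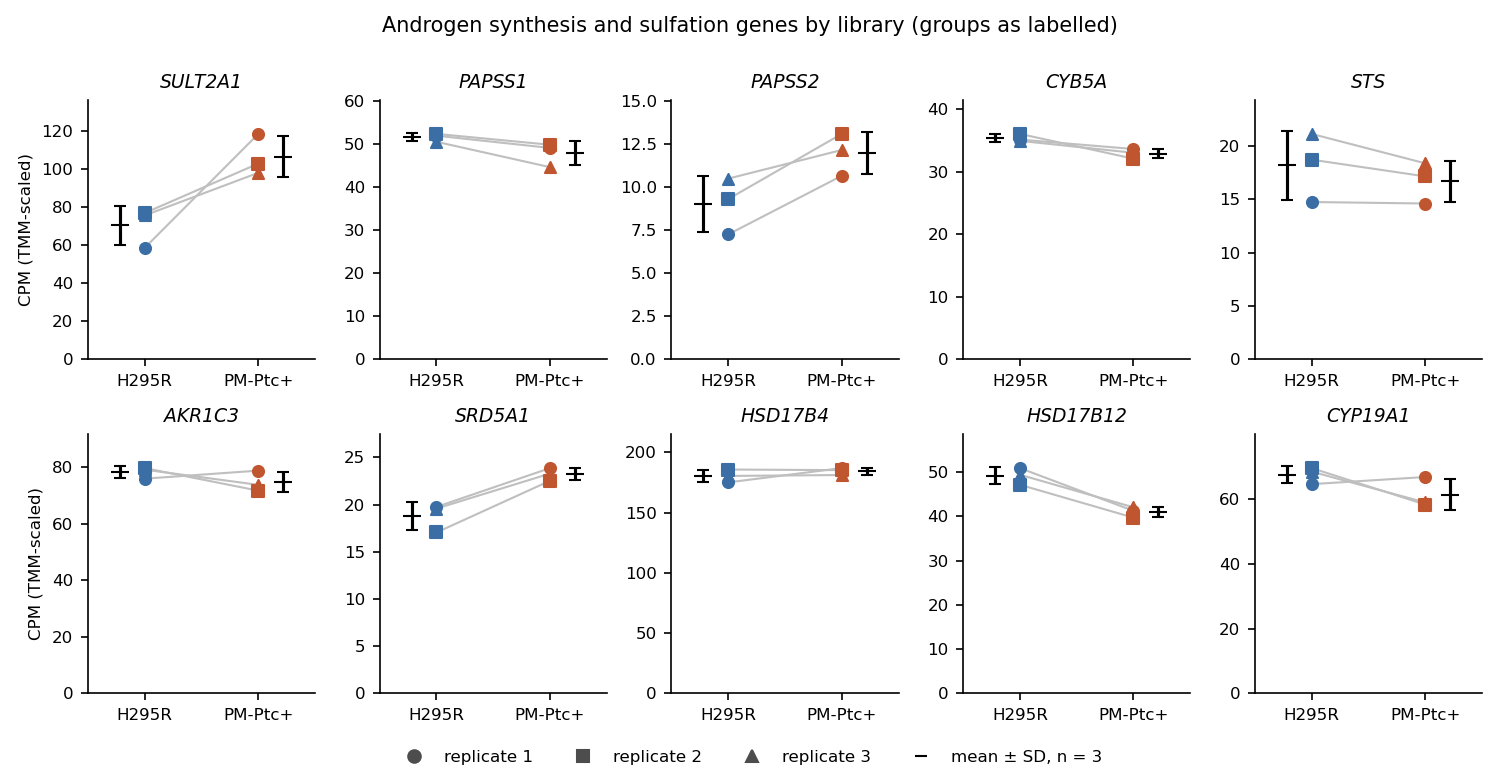
TMM-scaled CPM (y axis, from 0) of each of the 10 genes in the 3 libraries labelled H295R (blue) and the 3 labelled H295R-PM-Ptc+ (orange), with marker shape and grey lines for the replicate number and bars for the mean ± SD. SULT2A1 lay between 58.5 and 76.7 CPM in the libraries labelled H295R and between 97.8 and 118 CPM in the others, with its steepest line in replicate 1.

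SULT2A1 (chr19:47870466-47886397, minus strand, hg38, 6 exons in the canonical transcript) had 1397, 1949 and 1866 counts in replicates 1, 2 and 3 labelled H295R and 3023, 2553 and 2265 in those labelled H295R-PM-Ptc+. In TMM-scaled CPM these were 58.5, 76.7 and 75.5 against 118, 103 and 97.8. Every library labelled H295R-PM-Ptc+ lay above every library labelled H295R, and replicate 1 was the lowest of the one group and the highest of the other. The means were 70.2 ± 10.2 and 106 ± 10.7 CPM (SD, n = 3), and the log2 fold change was 0.60 (standard error 0.12, 95% confidence interval 0.33 to 0.87, edgeR adjusted p = 0.0306; with the replicate block 1.17e-04). Within the pairs of replicates 1, 2 and 3 the log2 differences were 1.02, 0.42 and 0.37, and without replicate 1 of both groups the log2 fold change was 0.40 (adjusted p = 0.00137). In edgeR fits without 1 library the adjusted p lost the threshold when any library but H295R replicate 1 was left out (0.0617 to 0.0879), with log2 fold changes from 0.48 to 0.67. An exact permutation test over the 3 and 3 libraries gave p = 0.1 (two-sided), the smallest value this design allows.

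The promoter of SULT2A1 is shown with that of SRD5A1, because both genes had a log2 fold change above 0, that of SRD5A1 passing only with the block or without replicate 1 of both groups, while the base composition of the windows does not match. The sequences are the 250 bases before the RefSeq start in GRCh38.p14, written along the gene's own strand, with capitals marking GATAA on either strand (TTATC where it lies on the other strand) or GGGCGG on either strand (CCGCCC).
SULT2A1 (chr19:47886316-47886565, minus strand): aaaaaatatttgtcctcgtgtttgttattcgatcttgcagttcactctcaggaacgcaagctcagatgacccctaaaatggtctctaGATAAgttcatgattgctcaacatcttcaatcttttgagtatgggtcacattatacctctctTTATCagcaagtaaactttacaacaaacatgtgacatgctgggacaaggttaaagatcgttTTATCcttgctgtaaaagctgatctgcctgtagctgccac
SRD5A1 (chr5:6633190-6633439, plus strand): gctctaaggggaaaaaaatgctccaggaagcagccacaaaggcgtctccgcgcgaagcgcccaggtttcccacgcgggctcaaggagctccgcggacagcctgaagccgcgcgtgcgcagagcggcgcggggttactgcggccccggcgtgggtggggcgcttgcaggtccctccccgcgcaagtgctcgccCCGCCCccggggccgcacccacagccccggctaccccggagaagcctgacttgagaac
The SULT2A1 window was 39.2% G and C, against a median of 58% over 35116 promoters, and held 3 GATAA matches whose first bases lay 163, 101 and 40 bases before the start. GATAA occurred in 20.4% of all promoters of this length and at least 3 times in 0.675%. These shares are not matched for base composition, and GATAA is a word rich in A and T. Among the 19 entries of 8 of the 10 genes, 1 entry of STS also held 3. The SRD5A1 window was 70.8% G and C and held no GATAA and 1 match to GGGCGG, which 42.6% of all promoters held. CAAGGNCA, searched on both strands as the letters of the NR5A1 motif, was in 4.51% of all promoters and in neither of these windows, and of the 8 genes with entries CYP19A1 alone held it. These matches describe letters and not bound sites.

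The PAPS synthases that feed the sulfation step lay on opposite sides of 0. PAPSS2 (chr10:87659613-87747705) had 173, 236 and 259 counts in the libraries labelled H295R and 272, 325 and 281 in those labelled H295R-PM-Ptc+, or 7.24, 9.29 and 10.5 against 10.6, 13.1 and 12.1 CPM. The groups did not overlap, but the highest library labelled H295R and the lowest of the others lay next to each other. The log2 fold change of PAPSS2 was 0.41 (95% confidence interval 0.07 to 0.75, edgeR adjusted p = 0.200), which did not pass without the block and passed with it (adjusted p = 0.00553), the pairs differing by 0.56, 0.49 and 0.21. PAPSS1 (chr4:107590276-107720452), the more abundant synthase, was at 52.0, 52.4 and 50.6 CPM in the libraries labelled H295R and at 49.1, 49.9 and 44.7 CPM in the others, where all 3 were lower. Its log2 fold change was -0.11 (95% confidence interval -0.28 to 0.06, edgeR adjusted p = 0.517, with the block 0.157).

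Per length of annotated exons, PAPSS2 made up 10.6%, 13.1% and 15.0% of the summed PAPS synthase RNA in the libraries labelled H295R and 15.6%, 18.3% and 18.8% in those labelled H295R-PM-Ptc+. The share was thus higher in every pair of same-numbered replicates, by 4.97, 5.13 and 3.80 percentage points, and the groups did not overlap. The means of 12.9 ± 2.21% and 17.5 ± 1.73% (SD, n = 3) differed by 4.63 percentage points, and the exact permutation test gave p = 0.1, the smallest value of 3 against 3 libraries. PAPSS1 remained the larger part of the sum in all 6 libraries.

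STS (chrX:7219456-7354810), which takes the sulfate off DHEAS, was at 14.7, 18.7 and 21.1 CPM in the libraries labelled H295R and at 14.6, 17.1 and 18.4 CPM in those labelled H295R-PM-Ptc+. The groups overlapped, replicate 1 was the lowest of each group, and the log2 fold change of -0.12 had a 95% confidence interval from -0.45 to 0.20 (edgeR adjusted p = 0.743, with the block 0.287). It ranged from -0.26 without H295R replicate 1 to -0.01 without H295R replicate 3. Set against each other per length, SULT2A1 exceeded STS by 3.70, 3.75 and 3.55 on the log2 scale in the libraries labelled H295R and by 4.73, 4.30 and 4.13 in those labelled H295R-PM-Ptc+. The log2 ratio of SULT2A1 RNA to STS RNA was therefore higher by 0.72 in the latter, from 3.67 ± 0.10 to 4.39 ± 0.31 (SD, n = 3), without overlap (exact permutation test, p = 0.1, the smallest possible). The difference of the ratio was 1.03 in the pair of replicate 1 and 0.55 and 0.58 in the other pairs. The log2 fold change of SULT2A1 alone was 0.60, so that the ratio mostly restates that of SULT2A1. Sulfation itself was not measured.

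CYB5A (chr18:74250847-74292016), the allosteric helper of the lyase step of CYP17A1, showed little spread, with 35.1, 36.0 and 34.9 CPM in the libraries labelled H295R and 33.6, 32.1 and 33.0 CPM in those labelled H295R-PM-Ptc+. All 3 of the latter lay below, but the log2 fold change was only -0.10 (95% confidence interval -0.26 to 0.05, edgeR adjusted p = 0.507, with the block 0.226).

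Of the converting enzymes, SRD5A1 and HSD17B12 lay farthest from 0, on opposite sides. SRD5A1 (chr5:6633343-6669562), a steroid reductase that acts on testosterone and its precursors, was at 19.8, 17.0 and 19.6 CPM in the libraries labelled H295R and at 23.9, 22.5 and 23.3 CPM in those labelled H295R-PM-Ptc+. Every library of the second group was higher, and the pairs differed by 0.27, 0.40 and 0.25 on the log2 scale. The log2 fold change of 0.31 (95% confidence interval 0.10 to 0.51) had an edgeR adjusted p of 0.107, and 0.00430 with the block. HSD17B12 (chr11:43556436-43856617), better known as a reductase of fatty acid elongation that can also act on estrone, was at 50.9, 47.1 and 49.4 CPM against 41.2, 39.7 and 42.0 CPM, without overlap, and its pairs were the most alike of the 10 genes (-0.30, -0.25 and -0.23). Its log2 fold change was -0.26 (95% confidence interval -0.42 to -0.10, edgeR adjusted p = 0.0868, with the block 0.00224). The annotated exons of HSD17B12 overlap an antisense gene over 11.0% of their length, and the counting was stated to use strand.

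The remaining converting enzymes did not pass with or without the block. HSD17B4 (chr5:119452443-119637199), a peroxisomal enzyme of fatty acid oxidation that can also oxidise estradiol, was the most counted of the 10 genes, at 175, 186 and 180.5 CPM against 187, 185 and 181 CPM (log2 fold change 0.03, 95% confidence interval -0.12 to 0.19, edgeR adjusted p = 0.878). AKR1C3 (chr10:5035354-5107686), the reductase that makes testosterone from androstenedione, was at 75.8, 79.6 and 79.0 CPM in the libraries labelled H295R and at 78.7, 71.6 and 73.7 CPM in the others. Replicate 1 went against the other pairs, and the log2 fold change was -0.07 (95% confidence interval -0.23 to 0.10, edgeR adjusted p = 0.725). AKR1C3 has near-identical paralogs, and how multiply mapped reads were split between them makes its level uncertain. CYP19A1 (chr15:51208057-51338610), the aromatase that turns androgens into estrogens, was at 64.5, 69.5 and 68.4 CPM against 66.7, 58.2 and 58.9 CPM. Here too replicate 1 was higher in the library labelled H295R-PM-Ptc+ (0.05) while replicates 2 and 3 were lower (-0.25 and -0.22), and the log2 fold change of -0.14 (edgeR adjusted p = 0.436) became -0.24 without replicate 1 of both groups (adjusted p = 0.0271).

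**Figure D2:**
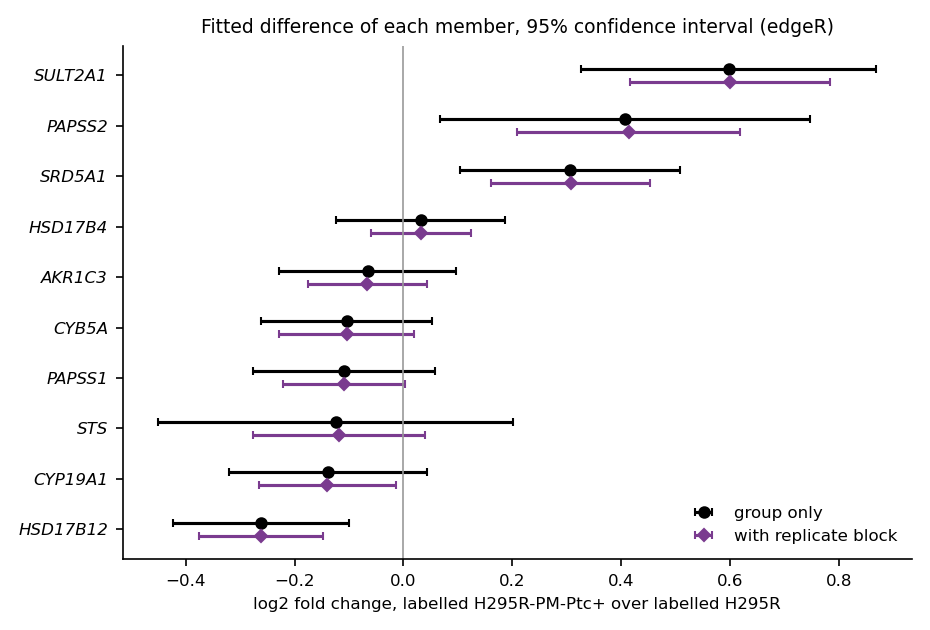
Log2 fold change of each gene (x axis, libraries labelled H295R-PM-Ptc+ over those labelled H295R) with its 95% confidence interval from edgeR, with group only (black circles) and with the replicate block (purple diamonds). The block left the points in place and narrowed the intervals, and SULT2A1, PAPSS2, SRD5A1 and HSD17B12 lay clear of 0 in both.

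Levels of different genes were compared per length, as TMM-scaled fragments per kilobase of annotated exons (FPKM, scaled like CPM), averaged over all 6 libraries. SULT2A1 was the highest at 44.4 FPKM, ranging from 29.4 to 59.5, followed by HSD17B4 at 22.2, AKR1C3 at 16.8 and PAPSS1 at 14.3 FPKM. The ranges of these 4 genes over the libraries did not overlap. CYP19A1 (7.63 FPKM) and SRD5A1 (7.27) overlapped, as did SRD5A1 and HSD17B12 (5.24), and CYB5A followed at 3.66 FPKM, apart from its neighbours in the order. STS (2.67 FPKM) and PAPSS2 (2.57) were the lowest and overlapped. The order rests on the length used. With the length of the canonical transcript in place of all annotated exons, HSD17B4 was the highest at 69.4 FPKM, AKR1C3 came next at 64.4 and SULT2A1 was the third at 46.3, and 1 of the 10 genes (PAPSS1) kept its rank.

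**Figure D3:**
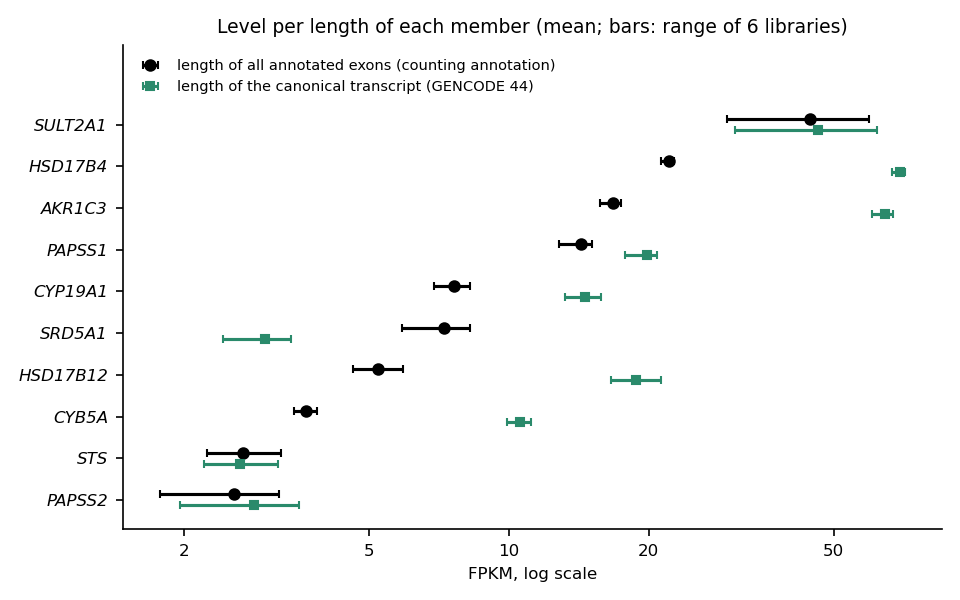
FPKM of each gene on a log axis, as the mean (points) and range (bars) of the 6 libraries, with the summed length of all annotated exons (black) or the length of the canonical transcript (green). HSD17B4, AKR1C3, HSD17B12 and CYB5A move to the right with the shorter transcript length, SRD5A1 moves to the left, and SULT2A1 is at 44.4 and 46.3 FPKM.

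The neighbours of SULT2A1 on chromosome 19 were also higher on balance. Of the 20 tested genes on each side (chr19:47019820-48619536), 32 of 40 had a log2 fold change above 0 and 8 below, with a median of 0.16. Over all genes tested, 8382 of 16710 were above 0. Of the 40, 1 gene passed as higher, a share near the 2.42% of all genes that did. SULT2A1 exceeded the median of the 40 by 0.44 on the log2 scale. With 50 genes on each side the median was 0.14, and 77 of 100 were above 0. Around SRD5A1, 31 of 40 neighbours were above 0 with a median of 0.11, which SRD5A1 exceeded by 0.20, and around PAPSS2 and HSD17B12 the medians were -0.04 and 0.05, from which these genes differed by 0.45 and -0.31. Around the other 6 genes the median lay between -0.08 (PAPSS1) and 0.09 (HSD17B4).

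**Figure D4:**
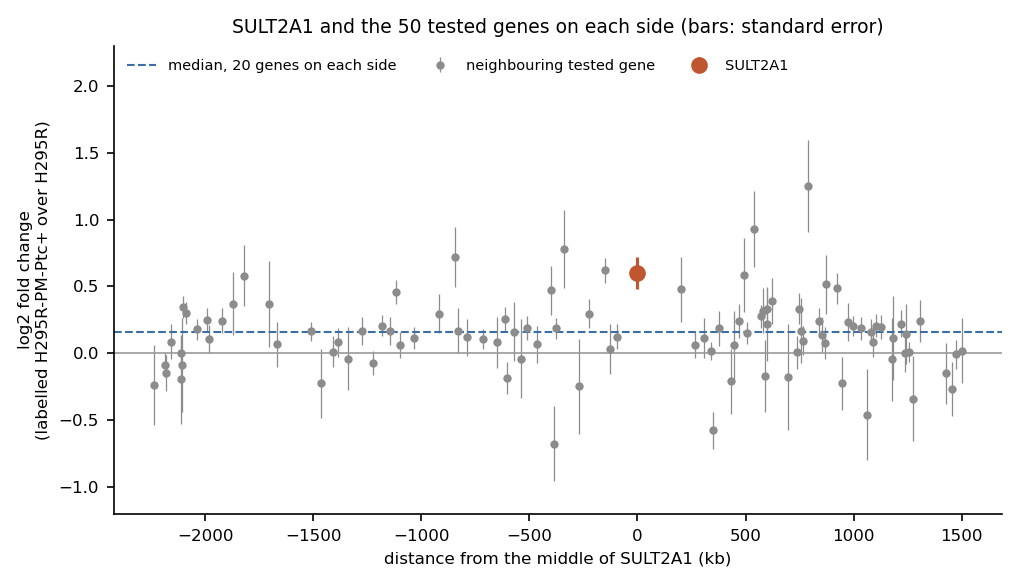
Log2 fold change (y axis, bars are the standard error) of SULT2A1 (orange) and the 50 tested genes on each side (grey) by distance from the middle of SULT2A1 in kb. Of the grey points 77 lie above 0 and 23 below, the outermost points at both ends lie on both sides of 0, the dashed line marks the median of 0.16 for the nearest 20 on each side, and SULT2A1 at 0.60 lies above it.

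The other genes of adrenal steroid synthesis, those of the cortisol and aldosterone branch included, numbered 11, of which 9 were tested. CYP21A2, the hydroxylase that leads precursors towards cortisol and aldosterone and away from androgens, was the 1 gene that passed, where 3.73% of all genes did. It had 365, 281 and 300 counts in the libraries labelled H295R and 640, 579 and 514 in the others, without overlap, and its log2 fold change was 0.88 (standard error 0.13, edgeR adjusted p = 0.00670, up to 0.0498 over 13 alternatives). Its pseudogene CYP21A1P had 76, 35 and 53 against 101, 93 and 86 counts, and reads of the near-identical copies may be split between them, so that the level of CYP21A2 is uncertain. CYP17A1, which makes DHEA, was at 39.3 ± 1.22 FPKM in the libraries labelled H295R and at 36.1 ± 4.55 FPKM in the others (SD, n = 3), a log2 fold change of -0.12 (edgeR adjusted p = 0.589). Per length of annotated exons, 3 genes had the highest levels of all the pathway genes outside the 10. This order rests on that length, and canonical lengths were not used for these genes. The 3 were STAR, which brings cholesterol into the mitochondrion (79.2 ± 18.9 and 105 ± 27.4 FPKM), HSD17B10, a mitochondrial dehydrogenase (77.0 ± 2.19 and 78.3 ± 5.04 FPKM), and FDXR, which passes electrons to the mitochondrial P450 enzymes (55.0 ± 5.23 and 57.7 ± 4.08 FPKM). None of the 3 passed without the block, and STAR, at a log2 fold change of 0.41 (edgeR adjusted p = 0.346), passed with it (3.91e-06), as did CYP11A1 at -0.25 (0.00100), the enzyme that cleaves the cholesterol side chain. With the block 3 of the 9 genes (33.3%) passed, against 22.5% of all genes, and the median of the 9 was 0.08.

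Among 23 other genes that convert or glucuronidate androgens, 14 were tested and 0 passed with edgeR, 4 reached an unadjusted p under 0.05 (17.3% of all genes), all lower, 2 passed with DESeq2 (5.45% of all genes) and 1 with limma-voom (3.64%). Their median log2 fold change was -0.19 against 0.00 over all genes. With the block, where 22.5% of all genes passed, 4 of the 14 (28.6%) passed, a share near that of all genes. All 4 were lower and are named after their values were seen: AKR1C1 (-0.52), HSD17B7 (-0.32), HSD17B11 (-0.30) and HSD17B14 (-0.22), of which HSD17B11 was next to the threshold without it (adjusted p = 0.0505). AKR1C1 is a paralog of AKR1C3 that inactivates progesterone, and the reads of this family may be split between its genes. UGT2B7, UGT2B15, UGT2B17 and UGT2B28, which attach glucuronic acid to androgens, had 0 counts in all 6 libraries.

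In the 24 other genes of sulfotransferases and of sulfate handling, 16 were tested and 0 passed with edgeR or limma-voom, 3 reached an unadjusted p under 0.05 and 1 passed with DESeq2, near the shares of all genes (17.3% and 5.45%). Their median was -0.05. With the block 4 of the 16 (25%) passed, a share near the 22.5% of all genes, and they are named after their values were seen. SLC26A11, a sulfate transporter, was higher (0.21), and SUMF2, a paralog of the sulfatase activating enzyme (-0.18), and the transporters ABCC4 (-0.56) and ABCG2 (-1.33), which can export steroid sulfates, were lower. STAR, ABCC4 and ABCG2 had also been picked by the study on these libraries, so that their values are not independent evidence. The paper lists ABCC4 and ABCG2 as overexpressed and STAR as underexpressed in H295R-PM-Ptc+ cells, the reverse of the directions under these labels. It also reports more ABCG2 protein in those cells. SULT1E1, the estrogen sulfotransferase, had at most 8 counts in a library, and SULT2B1, the other gene of the SULT2 family, had 11 to 31. Of the 5 genes of other cytochrome b5 and its reductases, all tested, 0 passed with edgeR, with the block, with DESeq2 or with limma-voom, 0 reached an unadjusted p under 0.05, and the median was 0.08.

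**Figure D5:**
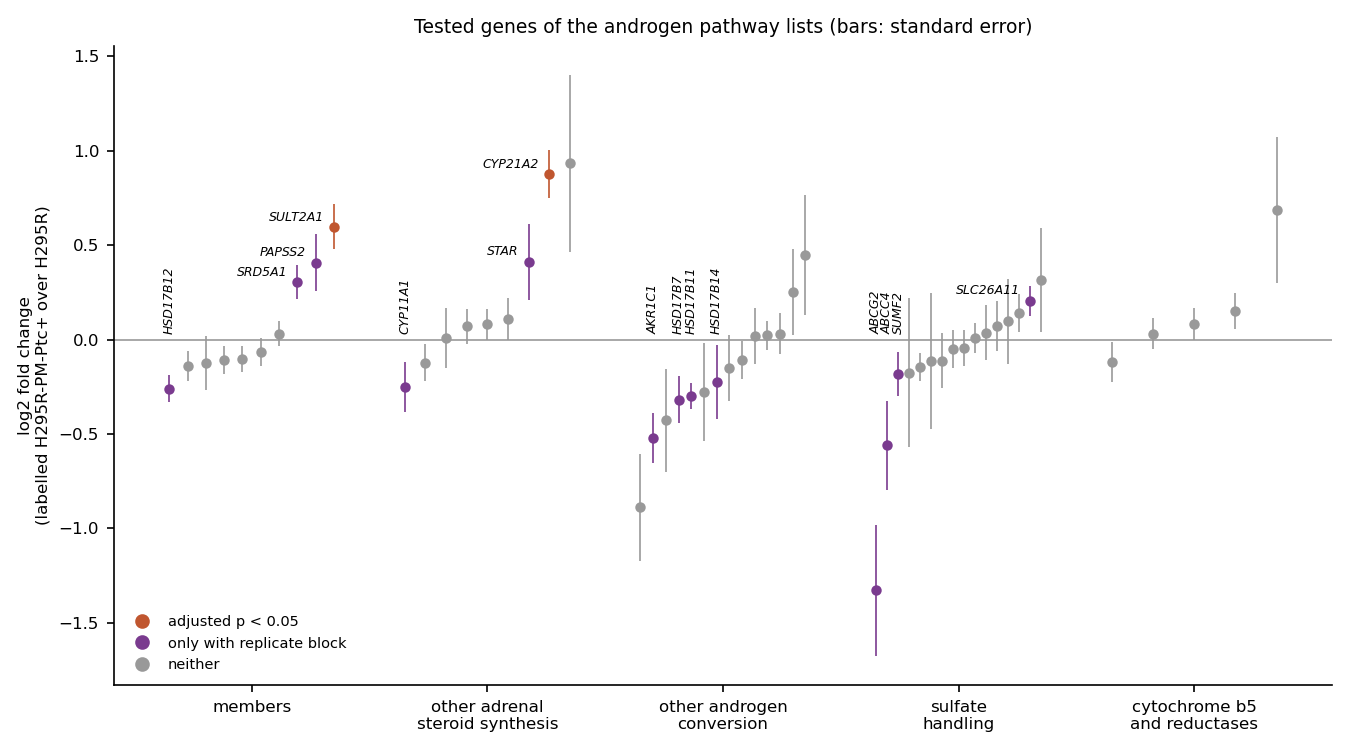
Log2 fold change (y axis, bars are the standard error without the block) of the tested genes of the 10 and of the 4 other lists, ordered within each list, with genes that passed in orange, those that passed only with the replicate block in purple and the others in grey. SULT2A1 and CYP21A2 are the 2 orange points, and the purple points of the converting enzymes outside the 10 all lie below 0.

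The genes whose log2 CPM followed that of SULT2A1 most closely over the 6 libraries were ALDH1A1 (Pearson r = 0.997), which oxidises retinaldehyde, RP11-710M11.1 (0.996), RP1-232L22__B.1 (0.993), MIPEP (0.993), a mitochondrial peptidase, and DUSP5 (0.990), a phosphatase of ERK. These values are a description, since the 6 libraries form 2 groups and any gene that differs between them shares part of this pattern. RP11-710M11.1 had only 4, 7 and 7 counts in the libraries labelled H295R and 14, 12 and 10 in the others, so that its r is uncertain. ALDH1A1 rose from 129 ± 16.3 to 181 ± 10.2 CPM (SD, n = 3; log2 fold change 0.49, edgeR adjusted p = 0.0354) and DUSP5 by 0.71 on the log2 scale (adjusted p = 0.0139), with adjusted p up to 0.112 and 0.0580 over 13 alternatives, while the others of the 5 did not pass. Like SULT2A1, ALDH1A1 had its lowest count in H295R replicate 1 (2631) and its highest in H295R-PM-Ptc+ replicate 1 (4933). ALDH1A1 had also been picked by the study on these libraries.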

How the data were processed

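RNA-seq libraries of 3 replicates labelled H295R and 3 labelled H295R-PM-Ptc+ were compared. The kit is a stranded mRNA kit in the paper and a stranded total RNA kit in the labels, which also give polyA RNA. Paired reads were mapped by the authors to hg38 with STAR 2.4.0a and counted per gene name by featureCounts (Subread 1.5.0-p3 in the submitters' processing notes, another version in the paper) on an Ensembl annotation, using strand and keeping multiply mapped reads at their primary position. The deposited values are raw counts, without normalization or a filter, together with a gene length in bases (another unit), which gave the levels per length. One row without a gene name held 0% of the counts and was left out.

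The main test was the two-sided quasi-likelihood F-test of edgeR 4.0.16 (R 4.3.3) on the group alone, after filterByExpr and TMM scaling, with the Benjamini-Hochberg adjustment over 16710 genes, where the study used DESeq2. The deposited totals of 23264403 to 25813247 fragments set the counting precision. Confidence intervals come from the fit, and single values were tested by exact permutation. The fit was also run on simulated data. These were drawn without the variation that same-numbered replicates share, so that they do not bear on the calls that depend on the replicate block. Replicates with one number were taken as pairs, because their deviations from the mean of each group (log2 CPM, across genes) correlated at 0.497, 0.307 and 0.228 for replicates 1, 2 and 3, against -0.352 to 0.15 between other numbers. The labels give replicates 1, 2 and 3 the shared codes 1801, 3001 and 3101 without saying what they mean. The alternatives were the replicate block, DESeq2 1.42.0, limma-voom (limma 3.58.1), RLE size factors, a minimum of 10 counts in each library or no filter at all, and fits without each library or without replicate 1 of both groups. Levels by canonical transcript length (GENCODE 44) and differences within pairs were added after the data were seen.

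The 10 genes, the pathway and marker lists and the tests were chosen with earlier results of these data known. Named are the 10 genes, the genes of the 4 pathway lists with an adjusted p under 0.05 or among the 3 highest levels per length, PTCH1, and the 5 genes most like each of the 10 that passed. Other pathway genes are named for their role or for a low or 0 count, and those that passed only with the block after their values were seen. Promoters are from RefSeq (GRCh38.p14), which held entries for 8 of the 10 genes, PAPSS2 and HSD17B12 having none. Tables were handled with Python 3.11.15 and pandas 2.3.3.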

Additional observations from a re-analysis of the deposited data

How the results depend on the processing

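None of the 10 genes changed the sign of its log2 fold change in 13 alternative fits each (130 in all), of which 119 kept the side of the threshold. The 5 fits that lost a call were those of SULT2A1 without a single library, and the 6 that gained one concerned PAPSS2, SRD5A1 and HSD17B12 with the replicate block and SRD5A1, HSD17B12 and CYP19A1 without replicate 1 of both groups. The number of the 10 genes that passed was 1 and became 4 with the replicate block, and it ranged from 0 to 4 when libraries were left out. Of all genes, 3758 passed with the replicate block and 1111 without a filter on low counts, in place of 624, and 219 to 2013 when libraries were left out. The 4 pathway lists had 9, 14, 16 and 5 genes tested in the main fit, of which 1 in all passed. With the replicate block 11 passed, with DESeq2 4, with limma-voom 2, with RLE size factors 2 and without a filter on low counts 4. When libraries were left out, 1 to 7 passed. The shares of all genes were 3.73% in the main fit, 22.5% with the block, 5.45% with DESeq2, 3.64% with limma-voom and 12% without replicate 1 of both groups. The counts of the lists are to be read against these shares. The block changed no other call among the 10 genes, and it kept those of PTCH1, CYP21A2, ALDH1A1 and DUSP5. By canonical transcript length 1 of the 10 genes kept its rank. Within pairs the sign turned for AKR1C3 and CYP19A1 in replicate 1 (0.0530 and 0.0485) and for HSD17B4 in replicate 2 (-0.00402). The cause of these changes was not tested. Fits that leave out 1 library have 2 in that arm and a looser estimate of the spread. With 3 libraries per group, differences of the size seen in CYB5A, PAPSS1 or STS were within the error of the fit.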
